A study of Mus musculus with 5 samples.

Results

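Chemokines are small secreted or membrane-tethered proteins that steer leukocytes by binding G-protein-coupled receptors, and the CXC and CX3C families are named for the spacing of the first cysteines in the protein. Here 7 of their genes (Cxcl1, Cxcl2, Cxcl10, Cxcl12, Cxcl14, Cxcl16 and Cx3cl1) and the receptor gene Cxcr4 are described, 8 of the 19221 genes in the deposited table, found there by symbol. These 8 were chosen with earlier results of these data known. RNA came from punches of the caudate putamen of male C57BL/6 mice, 9 weeks old, with no transgene or mutation named in the labels. The stroke groups were 4 hours, 1 day, 3 days and 10 days after photothrombosis of the right caudate putamen, in which 532 nm light at 30 mW for 2 min, led in by an optical fibre, activates the dye rose bengal (100 mg/kg) and clots the lit vessels. Each stroke library pooled the focal tissue of 6 animals. The sham group was 1 library pooled from the left side of the mice, which had the fibre and the light before the dye, so it is tissue from a brain with a stroke on the other side. The number of animals in it and their times after stroke are not stated in the labels.

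In the injured brain, Cxcl1 and Cxcl2 are known as neutrophil attractants that act through Cxcr2, and Cxcl10 as an interferon-inducible attractant of activated T cells through Cxcr3. Cxcl12 is the ligand of Cxcr4, which holds and recruits leukocytes and progenitor cells, and Ackr3 is its scavenging receptor. Cxcl16 and Cx3cl1 are made as membrane-anchored proteins that proteases of the Adam family release, Cxcl16 being read by Cxcr6 and Cx3cl1, a neuronal gene in brain, by Cx3cr1 on microglia and monocytes. Cxcl14 is a ligand of resting tissues whose signalling is less settled.

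The levels below are RPKM (reads scaled by gene length and by the library's total), which set genes on a common length scale. A fold is log2 of (stroke RPKM + 1) over (sham RPKM + 1), and a gene counts as higher or lower at a log2 fold of at least 1 or at most -1. Because each group is 1 library, no difference has a replicate check and no p-value is given. The 95% intervals of a ratio of RPKM cover counting error only. The read totals behind the 5 libraries lay between 42261761 and 48013842, and the 12783 genes that reached 1 RPKM in any library were analysed, among them all 8 described here. The median log2 fold over all of these came to 0.28 at 4 hours, -0.02 on day 1, 0.12 on day 3 and 0.07 on day 10, and median-of-ratios scaling, which sets a typical gene to no difference, divides the 4-hour library by a factor of 1.3. The medium spiny neurons that define the caudate putamen were read from 9 marker genes, which summed to between 901 and 2319 RPKM over the 5 libraries. The 5 choroid plexus markers summed to 739 RPKM at 4 hours, 305 on day 1, 20.1 on day 3 and 0.793 on day 10, against 79.2 in sham. Nearly all of each sum was Ttr, except on day 10, when Ttr had 0.205 RPKM. The choroid plexus borders the caudate putamen, and its part in the values below was not tested. Over the 5 libraries, the other marker sums ran from 302 to 702 RPKM for astrocytes, 641 to 1329 for oligodendrocytes and 57.2 to 105 for cortical neurons. Gene coordinates are those of GENCODE mouse release 21 on GRCm38. In bulk RNA, fewer cells of a type and less RNA per cell cannot be told apart.

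The promoter windows of Cxcl1, Cxcl2 and Cxcl10 are shown because those of Cxcl1 and Cxcl2 share an exact motif and that of Cxcl10 differs. Each runs from 250 bases before to 50 bases after the RefSeq transcription start (build GRCm38.p6), 5′ to 3′ on the gene's own strand. In Cxcl1 and Cxcl2, capitals mark the letters GGGAATTTCC, 1 form of the NF-kappaB consensus, and an overlapping match to the consensus on the other strand is left in lower case. In Cxcl10, capitals mark all matches to the NF-kappaB consensus and the interferon-response core (GAAA at both ends of any 2 bases), here GAAAGTGAAA. The windows are chr5:90890995-90891294 for Cxcl1 and chr5:90903649-90903948 for Cxcl2, both on the + strand, and chr5:92348840-92349139 on the - strand for Cxcl10.
Cxcl1: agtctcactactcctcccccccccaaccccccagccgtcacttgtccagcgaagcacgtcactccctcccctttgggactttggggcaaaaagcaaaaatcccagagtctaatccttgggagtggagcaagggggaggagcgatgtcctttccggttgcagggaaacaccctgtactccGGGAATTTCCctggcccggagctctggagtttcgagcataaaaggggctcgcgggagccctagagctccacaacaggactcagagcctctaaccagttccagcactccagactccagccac
Cxcl2: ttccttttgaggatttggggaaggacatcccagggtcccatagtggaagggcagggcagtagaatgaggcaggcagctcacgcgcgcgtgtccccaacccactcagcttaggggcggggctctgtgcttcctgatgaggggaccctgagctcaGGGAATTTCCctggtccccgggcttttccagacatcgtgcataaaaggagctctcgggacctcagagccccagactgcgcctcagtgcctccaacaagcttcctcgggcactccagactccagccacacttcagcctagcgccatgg
Cxcl10: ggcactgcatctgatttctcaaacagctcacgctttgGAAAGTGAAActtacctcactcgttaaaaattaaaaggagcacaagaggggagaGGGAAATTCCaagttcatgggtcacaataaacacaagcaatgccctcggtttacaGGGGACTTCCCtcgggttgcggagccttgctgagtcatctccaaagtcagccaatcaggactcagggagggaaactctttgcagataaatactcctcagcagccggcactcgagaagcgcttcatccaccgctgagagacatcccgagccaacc

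The 10 bases GGGAATTTCC, the form of the motif read from the Cxcl1 window, lie 71 to 62 bases before the start of Cxcl1 and 97 to 88 bases before that of Cxcl2. The same letters stand 73 to 64 bases before the start of Cxcl3, their neighbour on chromosome 5. They occur on either strand in 29 of the 32851 promoter windows of the same length, which is 0.0883%. The wider NF-kappaB consensus, of which these letters are 1 form, is in 8.46% of the windows, and Cxcl10 holds 4 matches to it at 2 places, 3 of them overlapping. The interferon-response core, in 3.44% of windows, was found in Cxcl10 (213 to 204 bases before the start) and, as GAAACAGAAA, in Cxcl14. The AP-1 motif TGANTCA, in 7.81% of windows, was found in Cxcl10, and the hypoxia-response core ACGTG, in 19.6%, in Cxcl1. The windows of Cxcl12, Cx3cl1 and Cxcr4 held no match to any of these 5 patterns. Windows for 7 of the 8 genes were used, Cxcl16 having none among them. These are matches of letters, searched on both strands, not measured binding sites.

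**Figure D1:**
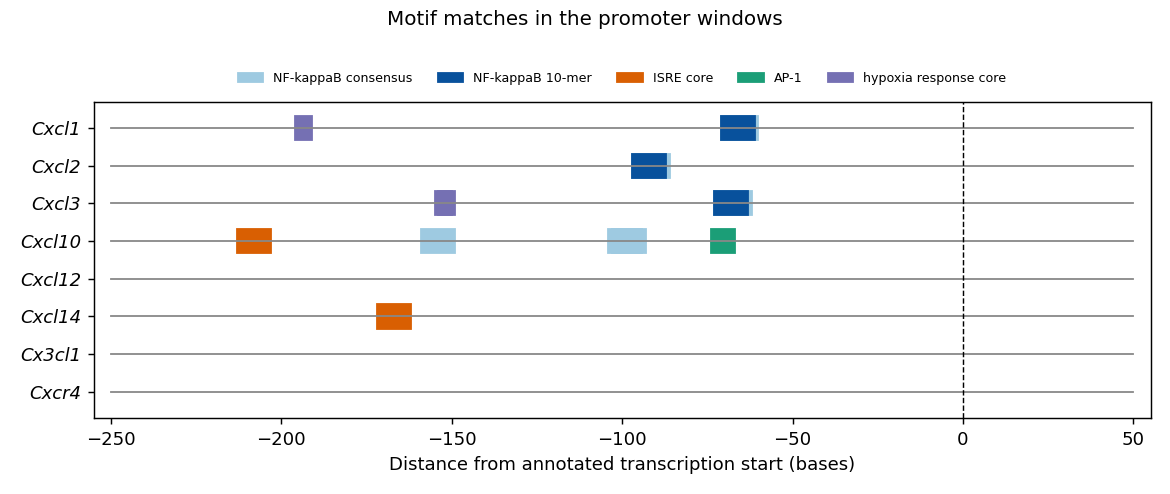
Matches to 5 motifs in the promoter windows of 7 of the described genes and of Cxcl3, by distance in bases from the annotated transcription start (dashed line); each box is 1 match and overlapping NF-kappaB matches are drawn over each other. The dark boxes, the exact 10 bases, stand between 97 and 62 bases before the start in Cxcl1, Cxcl2 and Cxcl3.

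Counted together, 0 of the 8 genes passed the limit upwards at 4 hours, when 2.2% of all analysed genes did, and 1 (Cxcl10) was lower, against 1.09% of all. On day 1, 3 genes were higher (Cxcl1, Cxcl2 and Cxcl16), against 3.33% of all genes, and 0 were lower, against 1.35%. With median-of-ratios scaling the counts of the 8 genes were the same at 4 hours and on day 1, while the shares of all genes became 0.61% higher and 1.9% lower at 4 hours and 4.54% higher and 1.04% lower on day 1. On day 3, 1 gene was higher (Cxcl16), against 9.04% of all genes, and 0 were lower, against 0.618%. In a group of 8, a single gene is a share close to that background. On day 10, 2 genes were higher (Cxcl16 and Cxcr4), against 4.2% of all genes, and 0 were lower, against 0.172%. The median log2 fold of the 8 genes was 0.23 at 4 hours, 0.34 on day 1, 0.05 on day 3 and 0.30 on day 10, beside the medians of all genes given above. All 4 comparisons share the sham library.

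**Figure D2:**
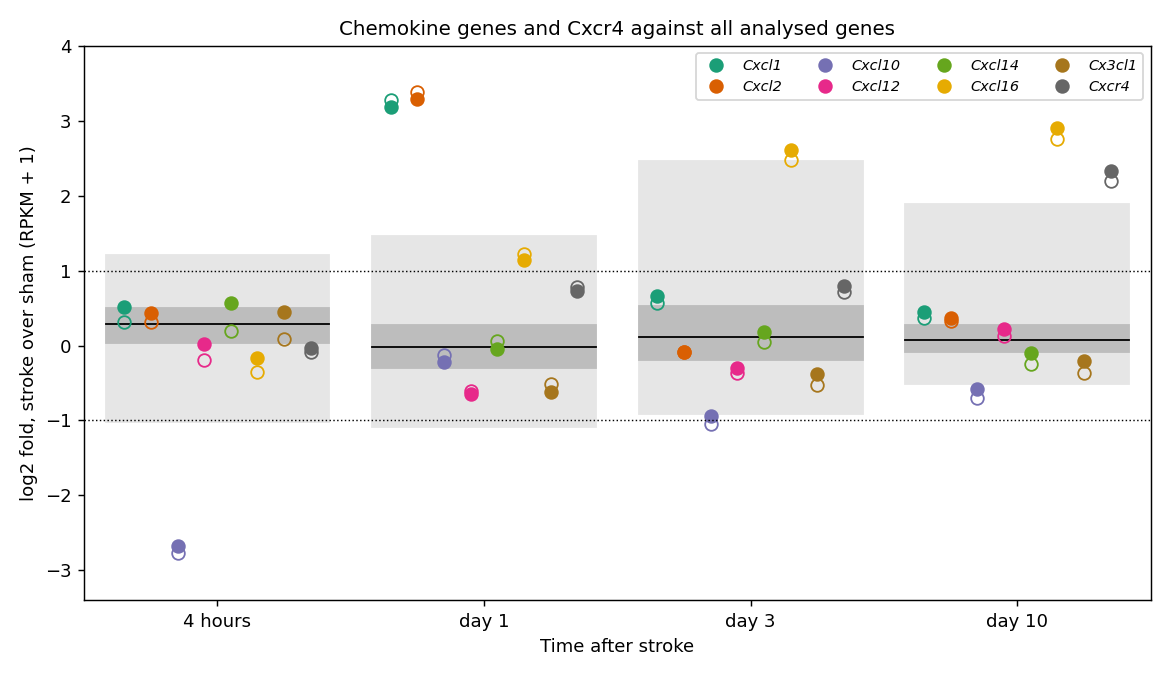
The log2 fold of the 8 genes over sham at each time (filled circles, RPKM as deposited; open circles, median-of-ratios scaling), drawn over all 12783 analysed genes, with their median (line), 25th to 75th percentile (dark) and 1st to 99th percentile (light). Dotted lines mark the limit of 1 and -1. Cxcl1 and Cxcl2 on day 1, Cxcl10 at 4 hours, day 3 and day 10, Cxcl16 on days 3 and 10 and Cxcr4 on day 10 stand outside the light band on the RPKM scale.

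Among the neutrophil attractants, day 1 stood out. Cxcl1 (ENSMUSG00000029380, chr5:90891241-90893115, + strand) had 1.40 RPKM at 4 hours, 14.2 on day 1, 1.64 on day 3 and 1.29 on day 10, against 0.677 RPKM in sham. All 4 stroke libraries lay above sham, and day 1 lay about an order of magnitude above the other stroke times. Its RPKM on day 1 was 21 times that in sham (95% counting interval 14.6 to 32.4, from 1232 and 57 reads). On day 1 its log2 fold of 3.18 was the 12th highest of the 12783 genes. The ratios to sham at the other times were 2.08 (1.32 to 3.41) at 4 hours, 2.42 (1.56 to 3.99) on day 3 and 1.90 (1.21 to 3.16) on day 10. Its 4-hour level and those on days 3 and 10 did not differ beyond counting error.

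Cxcl2 (ENSMUSG00000058427, chr5:90903871-90905938, + strand), the neighbouring gene with the same receptor, had 0.526 RPKM at 4 hours, 10.0 on day 1, 0.0687 on day 3 and 0.463 on day 10, against 0.129 RPKM in sham. It reached 1 RPKM on day 1 alone of the 5 libraries. The day 1 level was 77.7 times that in sham (35.5 to 213), with 962 reads against 12, and its log2 fold of 3.29 ranked 9th. On day 3 it was back to 6 reads, 0.00684 times the day 1 level (0.00140 to 0.0201) and not separated from sham by counting error. At 4 hours it was 4.07 times the sham level (1.63 to 12.1), and on day 10 it was 3.59 times that level (1.42 to 10.8), both on few reads. Cxcl1 was less steep after its peak, with a day 3 level 0.116 times that of day 1 (0.0882 to 0.150). The pseudocount of 1 compresses both folds, and the authors' deposited table gives shrunken log2 folds (GFOLD) on day 1 of 3.94 for Cxcl1 and 5.29 for Cxcl2.

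Both transcripts carry AU-rich elements, the pentamer ATTTA and the nonamer TTATTTATT by which RNA-decay proteins such as Zfp36 recognise short-lived cytokine messages. The 30 bases of the 3′ UTR (GENCODE transcripts, GRCm38) with most nonamers, then pentamers, are shown with the pentamers, some overlapping, in capitals. They are bases 81 to 110 of 592 in Cxcl1 and bases 881 to 910 of 1494 in Cxcl2.
Cxcl1: gggtcctATTTATTTAtgtATTTATTTAtt
Cxcl2: cttATTTATTTAtctatgtATTTATTTAtt

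In the whole 3′ UTR, Cxcl1 has 7 pentamers and 2 nonamers and Cxcl2 has 11 and 4. The nonamer occurs in 3.54% of 2376 genes with a 3′ UTR of a length like that of Cxcl1, and in 8.41% of 3126 genes with one like that of Cxcl2. Of the other 6 genes, Cx3cl1 has 1 nonamer and the others have 0, including Cxcl12 with 5188 bases and Cxcl10 with 3 pentamers. Zfp36 itself was higher at 4 hours and day 1, with 7.0 RPKM at 4 hours, 5.87 on day 1, 3.32 on day 3 and 2.80 on day 10, against 1.31 RPKM in sham. Its log2 fold was 1.79 at 4 hours and 1.57 on day 1 as deposited, and 1.47 at 4 hours and 1.66 on day 1 after median-of-ratios scaling, so which of these times is the higher depends on the scaling. At 4 hours Cxcl1 and Cxcl2 were far below their day 1 levels. It was the 1 of 3 genes of the RNA decay list past the limit at these times, and Zfp36l1 was the 1 of 3 on day 10, with a log2 fold of 1.01 that is 0.88, inside the limit, after median-of-ratios scaling.

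Of other genes of this branch, Cxcl3, Pf4, Ppbp and Cxcr2 were highest on day 1, and Cxcl5 on day 10. Cxcl5 had 0.0467 RPKM at 4 hours, 0.301 on day 1, 0.165 on day 3 and 0.514 on day 10, against 0.0597 RPKM in sham. Ppbp had 20 reads at 4 hours, 26 on day 1, 1 on day 3 and 7 on day 10, against 2 in sham. Both Cxcl5 and Ppbp stayed under 1 RPKM in every library. Cxcl3, the third neutrophil attractant of the cluster, had 1 read at 4 hours, 247 reads (1.52 RPKM) on day 1, 2 on day 3 and 2 on day 10, against 0 in sham. Its day 1 level was 39.9 times that of an assumed floor of 3 read pairs in the sham library. The lower 95% counting limit of its ratio to sham was 31.9. Cxcl2 and Cxcl3 transcripts share 61 of their 50-base stretches, out of 1859 in Cxcl2 and 967 in Cxcl3, so a small part of their reads could be split either way, while Cxcl1 shares 0 with either. Pf4, a platelet chemokine, had 1.69 RPKM at 4 hours, 13.7 on day 1, 6.20 on day 3 and 2.2 on day 10, against 0.679 RPKM in sham. Unlike Cxcl1 and Cxcl2, it was still 9.13 times the sham level on day 3 (4.85 to 18.8). The receptor Cxcr2 was scarce throughout, with 0 RPKM at 4 hours, 0.177 on day 1, 0.0932 on day 3 and 0.0547 on day 10, against 0.0292 RPKM in sham.

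The upstream cytokines Il1b and Tnf were the genes of the NF-kappaB list that were higher on day 1, 2 of 6 analysed out of 10 listed. Il1b had 0.183 RPKM at 4 hours, 3.45 on day 1, 0.199 on day 3 and 0.939 on day 10, against 0.163 RPKM in sham, a day 1 ratio of 21.1 (9.98 to 53.3). Tnf had 1.09 RPKM at 4 hours, 2.00 on day 1, 0.852 on day 3 and 0.724 on day 10, against 0.272 RPKM in sham. Il6, also on the list, stayed under 1 RPKM in every library and was not analysed. It had 87 reads on day 1 against 4 in sham, a ratio of 21.1 (5.43 to 178). Il1b and Tnf, like Cxcl2, were thus highest on day 1 and near 1 RPKM or below at the other times. Il1b did not differ from sham beyond counting error at 4 hours or on day 3, whereas Tnf was above sham beyond counting error in all 4 stroke libraries. The list's inhibitor Nfkbia, with log2 folds of 0.99 at 4 hours and 0.84 on day 1, stayed just inside the limit, and the list's median log2 fold was 0.25 at 4 hours, 0.77 on day 1, 0.50 on day 3 and 0.67 on day 10. After median-of-ratios scaling Nfkbia was at 0.63 at 4 hours and 0.94 on day 1. The list's median was then 0.06 at 4 hours and 0.86 on day 1.

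The genes whose pattern over the 5 libraries was most like that of Cxcl1 and Cxcl2, by the root mean square difference of centred log2(RPKM + 1) among 6875 candidates, were each other and the CC chemokines Ccl4 and Ccl3. The difference was 0.29 between Cxcl1 and Ccl4, 0.30 between Cxcl1 and Cxcl2, and 0.32 between Cxcl1 and Ccl3. Ccl4 had 10.3 RPKM at 4 hours, 61.3 on day 1, 9.32 on day 3 and 10.0 on day 10, against 3.61 RPKM in sham. Ccl3 had 9.74 RPKM at 4 hours, 69.1 on day 1, 10.4 on day 3 and 9.49 on day 10, against 3.37 RPKM in sham. Both CC genes thus had the day 1 peak on a higher base.

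The sum of the neutrophil markers was highest at the same time. The 6 markers measured, of 10 listed, summed to 7.45 RPKM at 4 hours, 154 on day 1, 13.9 on day 3 and 18.7 on day 10, against 12.6 RPKM in sham. S100a8 and S100a9 made up most of the day 1 sum, 5 of the 6 were highest on day 1, Ngp and Cxcr2 were at 0 at 4 hours, and the granule and surface markers Ly6g, Mpo, Elane and Camp were not analysed here. The exception was the receptor gene Csf3r, with 0.941 RPKM at 4 hours, 1.26 on day 1, 5.19 on day 3 and 8.89 on day 10, against 1.21 RPKM in sham, higher on days 3 and 10 and at the sham level on day 1. The part of these cells in the day 1 levels of Cxcl1 and Cxcl2 was not tested.

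**Figure D3:**
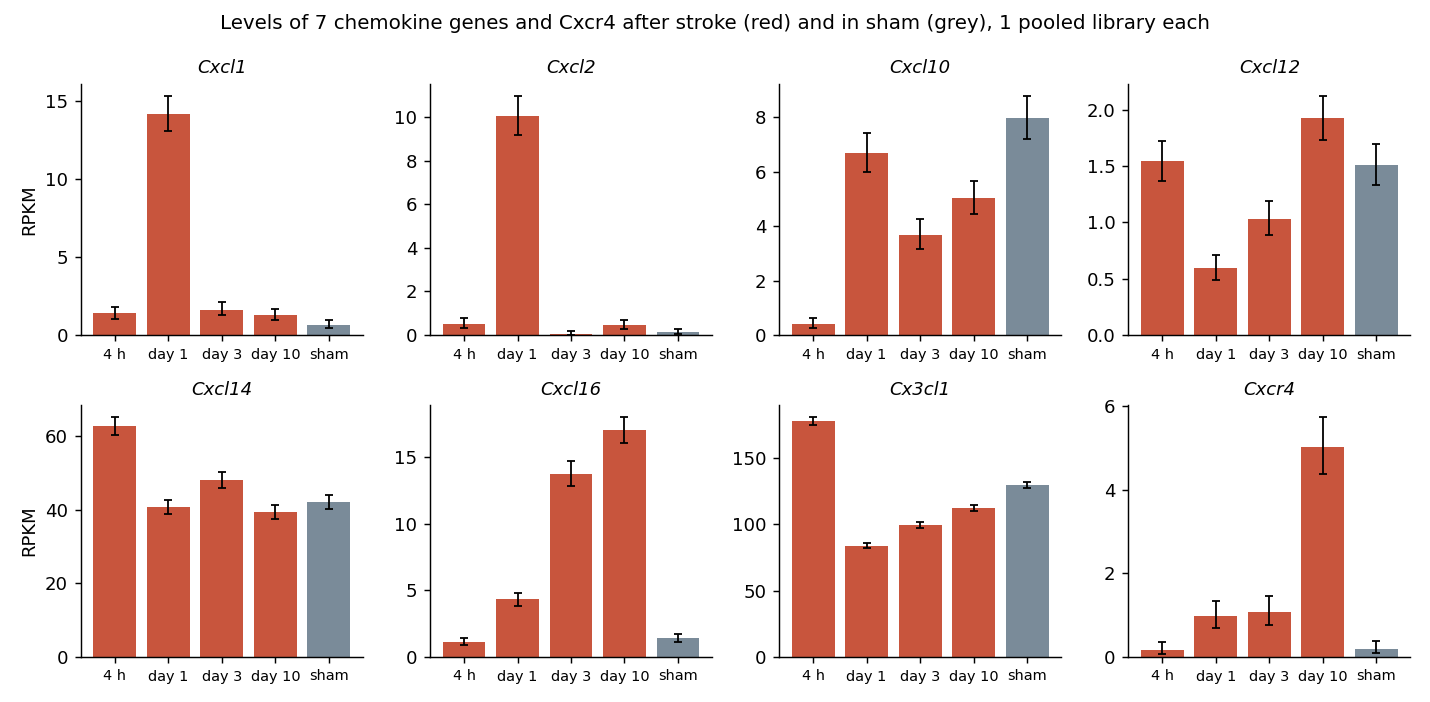
RPKM of the 8 genes in the 4 stroke libraries (red, by time) and the sham library (grey, right); bars are 1 pooled library each and the error bars are 95% counting intervals, not replicate error. Cxcl1 and Cxcl2 stand high on day 1, Cxcl10 low at 4 hours, Cxcl12 low on day 1, and Cxcl16 and Cxcr4 high on day 10, at 17.0 and 5.02 RPKM.

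Cxcl10 ran the other way. This interferon-inducible ligand (ENSMUSG00000034855, chr5:92346638-92348889, - strand) had 0.406 RPKM at 4 hours, 6.69 on day 1, 3.68 on day 3 and 5.03 on day 10, against 7.99 RPKM in sham. Sham was the highest of the 5 libraries and 4 hours by far the lowest, with 42 reads against 808. The 4-hour level was 0.0508 times that in sham (0.0311 to 0.0787), and its log2 fold of -2.68 was the 7th lowest of all genes analysed. By day 1 it was 16.5 times the 4-hour level (10.6 to 27.0) and 0.838 times the sham level (0.724 to 0.969). The ratios to sham were 0.460 (0.383 to 0.551) on day 3 and 0.630 (0.538 to 0.736) on day 10. The day 3 log2 fold of -0.94 is just inside the limit, and it is -1.05 after median-of-ratios scaling.

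Cxcl10 shares 133 of its 2252 exonic bases with Art3 on the opposite strand, and the sources used here do not say whether counting used strand. Art3 had 76 reads at 4 hours, 79 on day 1, 47 on day 3 and 87 on day 10, against 91 in sham. If its reads were spread evenly, 2 or 3 of them in each library would fall in the shared bases, compared with the 42 to 808 reads of Cxcl10.

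Other interferon-stimulated genes were low at 4 hours too, and later departed from Cxcl10. At 4 hours, 3 of the 8 analysed genes of the interferon list (11 listed) were lower than sham and 0 were higher, and 4 were lower after median-of-ratios scaling. The list's median log2 fold was -0.88 at 4 hours, -0.23 on day 1, 0.43 on day 3 and 0.86 on day 10. Isg15, a ubiquitin-like protein, had 1.47 RPKM at 4 hours, 12.3 on day 1, 32.9 on day 3 and 26.2 on day 10, against 12.5 RPKM in sham. Irf7, the transcription factor that amplifies type I interferon, had 0.363 RPKM at 4 hours, 1.61 on day 1, 13.7 on day 3 and 19.5 on day 10, against 3.73 RPKM in sham. Isg15 and Irf7 were the 2 of 8 genes of the list that were higher on day 3 and on day 10, at which times Cxcl10 was below sham. The day 10 log2 fold of Isg15, 1.01, falls to 0.86, inside the limit, after median-of-ratios scaling. Ifit3, the other gene lower at 4 hours, had 1.62 RPKM at 4 hours, 3.74 on day 1, 8.22 on day 3 and 15.1 on day 10, against 7.51 RPKM in sham.

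The patterns most like that of Cxcl10 were those of Gbp2 and Igtp, interferon-inducible GTPases, at differences of 0.38 and 0.49, and that of Cdr1 at 0.60. Gbp2 had 0.259 RPKM at 4 hours, 3.16 on day 1, 2.07 on day 3 and 2.96 on day 10, against 2.63 RPKM in sham. Igtp had 0.646 RPKM at 4 hours, 4.81 on day 1, 4.17 on day 3 and 8.19 on day 10, against 4.29 RPKM in sham. Igtp was thus highest on day 10, above sham, where Cxcl10 was below it. Cxcr3, the receptor, had 0 RPKM at 4 hours, 0.0624 on day 1, 0.0683 on day 3 and 0.409 on day 10, against 0.0643 RPKM in sham. Cxcl9, a second ligand of Cxcr3, had 0.0144 RPKM at 4 hours, 0.0716 on day 1, 0.102 on day 3 and 0.587 on day 10, against 0.0590 RPKM in sham. Receptor and second ligand were thus both highest on day 10, without reaching 1 RPKM. The 6 measured T and NK cell markers, of 7 listed, summed to 0.273 RPKM at 4 hours, 0.177 on day 1, 0.682 on day 3 and 5.65 on day 10, against 0.554 RPKM in sham, with Cd8a at 0 at 4 hours and day 1, Gzmb at 0 at 4 hours and Trac at 0 on day 1. Their part in the day 10 levels of Cxcr3 and Cxcl9 was not tested.

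Cxcl12 and Cxcr4 were both highest on day 10, but on day 1 Cxcl12 was below sham and Cxcr4 above it. Cxcl12 (ENSMUSG00000061353, chr6:117168535-117181367, + strand) had 1.54 RPKM at 4 hours, 0.594 on day 1, 1.03 on day 3 and 1.92 on day 10, against 1.51 RPKM in sham. It was lowest on day 1 and highest on day 10, and its levels at 4 hours and in sham did not differ beyond counting error. The day 1 level was 0.395 times that in sham (0.313 to 0.492), and the day 10 level was 3.24 times that of day 1 (2.62 to 4.05) and 1.28 times that in sham (1.09 to 1.5). No log2 fold of Cxcl12 reached the limit, the largest being -0.65 on day 1, although its day 1 ratio without the pseudocount is below 0.5. The 8 endothelial markers summed to 48.1 RPKM at 4 hours, 73.8 on day 1, 132 on day 3 and 100.4 on day 10, against 69.3 RPKM in sham, most of it Ly6c1 and Cldn5. Of the 8, Flt1 and Slco1a4 were lowest on day 1, as Cxcl12 was, but 4 were lowest at 4 hours. Another 1 was lowest on day 10 and 1 in sham, and 5 of the 8 were highest on day 3. Slco1a4 had 0.509 RPKM at 4 hours, 0.172 on day 1, 0.616 on day 3 and 0.948 on day 10, against 0.403 RPKM in sham. The 7 pericyte and fibroblast markers summed to 6.18 RPKM at 4 hours, 4.74 on day 1, 7.34 on day 3 and 11.9 on day 10, against 5.85 RPKM in sham. Their sum was lowest on day 1 and highest on day 10, with 5 of the 7 lowest on day 1 and 4 highest on day 10, whereas Kcnj8 was highest on day 1 (1.16 RPKM) and Rgs5 on day 3 (2.93 RPKM). On day 10 Col1a1 was the highest of the 7, ahead of Rgs5 (2.78 RPKM) and Pdgfrb (2.26 RPKM). Col1a1 had 0.385 RPKM at 4 hours, 0.184 on day 1, 0.653 on day 3 and 3.38 on day 10, against 0.343 RPKM in sham. The part of these cells in the Cxcl12 level was not tested. The 4-hour log2 fold of 0.02 is -0.19 after median-of-ratios scaling. The closest patterns were those of Numa1, Gigyf1 and B430305J03Rik, at differences of 0.05 each.

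Cxcr4 (ENSMUSG00000045382, chr1:128588199-128592293, - strand) had 0.169 RPKM at 4 hours, 0.979 on day 1, 1.07 on day 3 and 5.02 on day 10, against 0.197 RPKM in sham. It was at the sham level at 4 hours, higher and level on days 1 and 3, and highest on day 10. The ratio to sham was 4.97 (2.30 to 12.3) on day 1, 5.45 (2.52 to 13.5) on day 3 and 25.5 (12.7 to 59.8) on day 10, with 436 reads on day 10 against 16 in sham. Its log2 fold of 2.33 on day 10 ranked 64th, while those on day 1 (0.73) and day 3 (0.79) stayed under the limit on this scale. Day 10 was 4.68 times day 3 (3.34 to 6.70). The scavenging receptor Ackr3 had another order, with 3.74 RPKM at 4 hours, 1.97 on day 1, 2.00 on day 3 and 1.65 on day 10, against 1.40 RPKM in sham. Its 4-hour ratio was 2.67 (2.14 to 3.39), with a log2 fold of 0.98, so Ackr3 was highest at 4 hours and Cxcr4 on day 10.

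The leukocyte marker sums differed in when they were highest. The 10 monocyte and macrophage markers summed to 16.5 RPKM at 4 hours, 78.7 on day 1, 149 on day 3 and 282 on day 10, against 23.9 RPKM in sham, with Ccr2 and Chil3 at 0 at 4 hours. The day 10 maximum came from Lyz2, with 3.94 RPKM at 4 hours, 26.4 on day 1, 97.9 on day 3 and 245 on day 10, against 10.7 RPKM in sham. Without Lyz2 the sum was 12.5 RPKM at 4 hours, 52.3 on day 1, 50.7 on day 3 and 37.0 on day 10, against 13.2 RPKM in sham, so the other 9 were together highest on day 1. Most of that day 1 sum was Cd14 (42.7 RPKM), the 1 of the 10 markers that was highest on day 1. Of the 10, 5 were highest on day 3 and 4 on day 10. Arg1 was at 10.2 RPKM on day 3 and 0.0841 on day 10, against 0.160 RPKM in sham. The 9 microglia markers summed to 91.1 RPKM at 4 hours, 58.1 on day 1, 363 on day 3 and 324 on day 10, against 75.1 RPKM in sham, with 4 of the 9 highest on day 3 and 5 on day 10. The T and NK cell sum given above was highest on day 10, as were all 6 of its markers. The part of these cells in the Cxcr4 level was not tested. The closest patterns to Cxcr4 were those of Lpcat2, Phyhd1 and Serping1, at differences of 0.39 to 0.41.

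Cxcl16 (ENSMUSG00000018920, chr11:70453983-70459984, - strand) was higher at each later time. It had 1.15 RPKM at 4 hours, 4.31 on day 1, 13.8 on day 3 and 17.0 on day 10, against 1.41 RPKM in sham. The 4-hour level did not differ from sham beyond counting error, and each later library lay above the one before. The ratio to sham was 3.05 (2.41 to 3.87) on day 1, 9.72 (7.87 to 12.1) on day 3 and 12 (9.76 to 15) on day 10. Its log2 folds were 1.14 on day 1, 2.61 on day 3 and 2.90 on day 10, ranking 284th, 111th and 30th among all genes, so it passed the limit at 3 of the 4 times.

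Cxcl16 shares 552 of its 3021 exonic bases, 18.3%, with Zmynd15 on the opposite strand. Zmynd15 had 50 reads at 4 hours, 191 on day 1, 500 on day 3 and 778 on day 10, against 55 in sham, which was between 0.285 and 0.317 of the Cxcl16 reads in every library. Reads of the 2 genes therefore cannot be told apart in the shared bases. With all Zmynd15 reads taken off, the ratio of Cxcl16 to sham was 2.92 on day 1, 9.75 on day 3 and 11.5 on day 10. Because these reads were a near constant share of the Cxcl16 reads, the ratio could hardly change. It therefore does not show how far the overlap matters.

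The receptor of Cxcl16, Cxcr6, was scarce, with 0 RPKM at 4 hours, 0 on day 1, 0.0245 on day 3 and 0.108 on day 10, against 0.0115 RPKM in sham. Among the proteases that release or trim chemokines, Mmp2 was the 1 of 2 analysed genes that was higher, on day 10, with 0.420 RPKM at 4 hours, 0.237 on day 1, 1.51 on day 3 and 1.95 on day 10, against 0.271 RPKM in sham. Adam10, a sheddase of both membrane-anchored chemokines, had 0.850 RPKM at 4 hours, 0.756 on day 1, 1.69 on day 3 and 1.59 on day 10, against 1.01 RPKM in sham. Adam10 thus stayed within the limit at every time while Cxcl16 did not. The listed proteases Mmp9 and Adam17 stayed under 1 RPKM in every library and were not analysed. Mmp9 was 7.95 times the sham level on day 1 (3.86 to 21.9), and Adam17 was 2.56 times that level on day 10 (1.82 to 3.63). At 4 hours neither differed from sham beyond counting error. The closest patterns to Cxcl16 were those of the predicted gene Gm42674, the monocyte-attracting chemokine Ccl8 and AB124611, at differences of 0.16 to 0.18. Ccl8 was at 0 RPKM at 4 hours, with 1.18 on day 1, 7.55 on day 3 and 8.36 on day 10, against 0.348 RPKM in sham. Of the 10 monocyte and macrophage markers, Lyz2 and Ms4a7 had the same order of libraries as Cxcl16, and their sum had it with Lyz2 but not without, as given above. The part of these cells in the Cxcl16 level was not tested.

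Cx3cl1 (ENSMUSG00000031778, chr8:94772009-94782427, + strand) was the most abundant of the 8 genes in all 5 libraries. It had 178 RPKM at 4 hours, 83.9 on day 1, 99.1 on day 3 and 112 on day 10, against 130 RPKM in sham. It was above sham at 4 hours and below it at the 3 later times, and its highest library was 2.12 times its lowest. The ratio to sham was 1.37 (1.34 to 1.40) at 4 hours, 0.647 (0.628 to 0.666) on day 1, 0.765 (0.743 to 0.787) on day 3 and 0.865 (0.843 to 0.889) on day 10. With median-of-ratios scaling the 4-hour log2 fold of 0.45 shrinks to 0.08, and day 3 takes the place of day 1 as the lowest library, both at -0.52. Against the 4-hour library itself, the day 1 level was 0.472 times as high (0.459 to 0.485).

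The summed markers of medium spiny neurons had the same order of libraries. The 9 genes summed to 2319 RPKM at 4 hours, 901 on day 1, 1380 on day 3 and 1543 on day 10, against 1806 RPKM in sham, and 5 of the 9 were at least 2-fold lower on day 1, or 3 of 9 after median-of-ratios scaling. Of the 9, 5 had the order of Cx3cl1 one by one, and without Ppp1r1b the sum had day 3 (723 RPKM) above day 10 (694 RPKM), unlike Cx3cl1. Drd2 (73.1 RPKM at 4 hours, against 73.8 in sham) and Ppp1r1b (1004 RPKM at 4 hours, against 1019 in sham) were not above sham at 4 hours, Penk was above it on day 3 (474 RPKM, against 432 in sham), and Tac1 was lowest on day 10. The part of neuron content in the Cx3cl1 level was not tested. The closest patterns were those of Clstn3, Cntfr and Hipk4, at differences of 0.04 to 0.05. The receptor Cx3cr1 went its own way, with 2.2 RPKM at 4 hours, 1.54 on day 1, 4.04 on day 3 and 9.88 on day 10, against 2.81 RPKM in sham. On day 10 it was 3.52 times the sham level (3.09 to 4.03), while Cx3cl1 was below sham. Cx3cr1 is itself 1 of the 9 microglia markers whose sums are given above.

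Cxcl14 (ENSMUSG00000021508, chr13:56288643-56296551, - strand) was the second most abundant of the 8 genes and the steadiest. It had 62.7 RPKM at 4 hours, 40.8 on day 1, 48.0 on day 3 and 39.3 on day 10, against 42.1 RPKM in sham. The highest library was 1.59 times the lowest, compared with 146 times for Cxcl2. Its day 1 level did not differ beyond counting error from that on day 10 or in sham. The log2 fold of 0.56 at 4 hours becomes 0.20 after median-of-ratios scaling, and that on day 1 changes sign, at -0.04 as deposited and 0.06 after scaling. The nearest patterns were those of Mrps2, Rpa1 and Trappc12, at differences of 0.03.

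Over a wider list of 25 CXC and CX3C ligands and receptors, 13 were analysed, the rest being under 1 RPKM in every library or not analysed here. Their median log2 fold was 0.43 at 4 hours, 0.59 on day 1, 0.32 on day 3 and 0.37 on day 10. Of the other 5 (Cxcl3, Pf4, Ackr3, Ackr1 and Cx3cr1), Cxcl3 and Pf4 were higher on day 1, Pf4 on day 3 and Cx3cr1 on day 10, and 0 were lower. Ackr1, the endothelial and red-cell scavenger of many chemokines, had 13.1 RPKM at 4 hours, 12.9 on day 1, 14.4 on day 3 and 12.4 on day 10, against 8.29 RPKM in sham. It was above sham at all 4 times by 1.49 to 1.74 times, within the limit. Of the hypoxia list, Ddit4 and Bnip3 were higher at 4 hours, 2 of 7 genes, and Egln3 on day 3, 1 of 7, with list medians of 0.53 at 4 hours, 0.21 on day 1, 0.50 on day 3 and 0.05 on day 10. After median-of-ratios scaling 0 of 7 were higher at 4 hours, with log2 folds of 0.85 for Ddit4 and 0.71 for Bnip3 and a list median of 0.23, while 2 of 7 were on day 1, Bnip3 at 1.05 and Egln3 at 1.02.

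**Figure D4:**
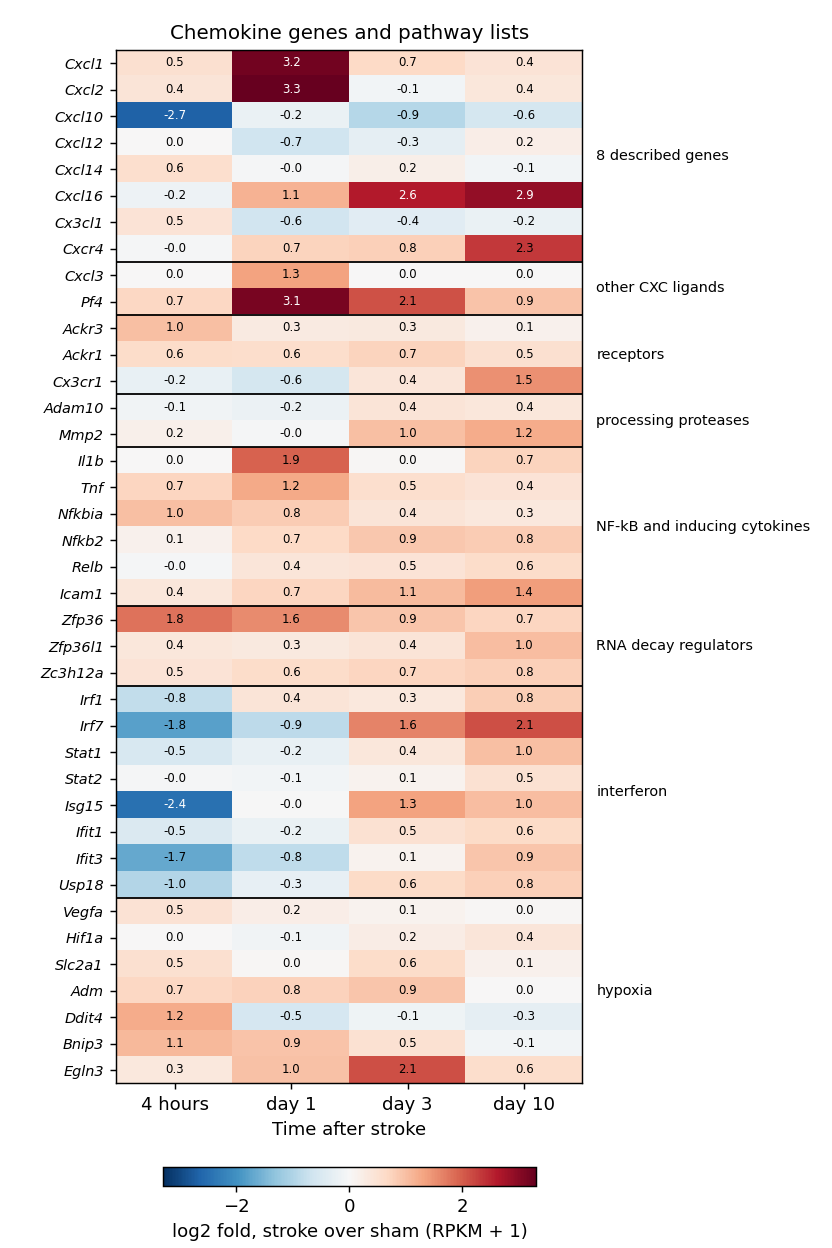
The log2 fold over sham at each time (columns) for the 8 described genes and the analysed genes of the pathway lists (rows), from blue (lower in stroke) to red (higher in stroke); numbers in the cells are the log2 folds. The day 1 column is darkest red for Cxcl1, Cxcl2 and Pf4, and the 4-hour column is darkest blue for Cxcl10 and Isg15.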

How the data were processed

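RNA was measured by total RNA sequencing in 5 pooled libraries, 1 per group. Per the submitters' processing notes, the build was GRCm38 and the tools were HISAT2 2.1.0, StringTie 1.3.4d and Trimmomatic 0.36, with no roles stated. Neither the annotation version nor the use of strand is stated in the sources used here. The authors deposited RPKM values for 19221 genes, per the file headers, and a log2 GFOLD value at the setting 0.01, which pulls the fold of thinly read genes towards 0.

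Of the identifiers, 19158 (99.7%) were found in GENCODE mouse release 21 for coordinates and exon lengths. RPKM times exon length was a whole number of reads to within 0.02 for 90.4% to 90.5% of values below 5000 reads, and these whole reads gave the depth of each library. About 55.3% to 57.3% of low read numbers were even, as where both mates are counted, so the 95% intervals of a ratio (exact, conditional on the summed count) were made from reads over 2. They reflect counting error alone, because PCR copies are not independent molecules. One read of a 2 kb gene was worth 0.0104 to 0.0118 RPKM. The recovery, folds and intervals were tested on simulated data. Without replicates, no count test was run.

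Genes with at least 1 RPKM in 1 library were analysed with a pseudocount of 1. RPKM divides by all reads, so abundant transcripts move all other values. The alternatives tried were a floor of 5 RPKM or none, pseudocounts of 0.1 and 0.5, limits of 1.5 and 2, median-of-ratios and trimmed-mean scaling, rescaling without predicted, mitochondrial, ribosomal and small RNA genes, and the 4-hour library as reference. The named genes were all 8 members, the fixed pathway and marker lists, and the 3 nearest patterns per member among genes averaging at least 2 RPKM. The members and lists were chosen with earlier results of these data known. Promoters are from RefSeq (GRCm38.p6). Analyses used Python 3.11.15, NumPy 2.4.6, pandas 2.3.3, SciPy 1.17.1 and matplotlib 3.10.9.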

Additional observations from a re-analysis of the deposited data

Results flagged for a closer look

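Irf7 and Isg15 lay past the size limit in opposite directions at different times, each time against the same sham library. Irf7 had a log2 fold of 2.12 on day 10 and -1.80 at 4 hours. Isg15 had a log2 fold of 1.33 on day 3 and -2.45 at 4 hours. With 1 library per time, the difference between times was not tested. Cxcl10, of the same interferon-inducible class, was below sham at all 4 times.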

How the results depend on the processing

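The 7 folds of the 8 genes past the limit kept their sign and stayed past it in 21 of 21 values under the 3 scalings against sham, and the other 25 kept their sign in 69 of 75 and passed the limit in 3. Filters leave a fold as it is, and the smaller pseudocounts tried can only enlarge it. With a pseudocount of 0.1, 1 gene was higher at 4 hours, 4 on day 1, 3 on day 3 and 3 on day 10, and 1 was lower on each of days 1 and 3. With 0.5, 4 were higher on day 1, and 2 higher and 1 lower on day 3. Limits of 1.5 and 2 each left 2 higher on day 1. Each of the 3 scalings gave 1 lower on day 3, which is Cxcl10. Against the 4-hour library, 4 were higher on day 1, 2 on day 3 and 3 on day 10, and 1 was lower on day 1. The authors' deposited table (GFOLD at the limit) and a counting interval wholly past 2-fold, both chosen after seeing the data, each gave 4 higher and 1 lower on day 1 and 2 higher on day 3. The median of the wider ligand and receptor list moved at 4 hours to -0.0038 without a filter, 0.082 with median-of-ratios scaling, 0.095 with trimmed-mean scaling and 0.12 after rescaling. Without a filter it was 0.24 on day 1 and 0.072 on day 3, and on day 10 it was 0.57 with a pseudocount of 0.1 and 0.0081 against the 4-hour library. The cause of these moves was not tested. The count of all genes higher at 4 hours ranged from 16 to 835 (281 as reported), and that of genes lower on day 3 from 1 to 885 (79 as reported). Of the 24 nearest patterns, between 6 (pseudocount 0.1) and 18 (rescaled) were found again, and 10 of 21 with a floor of 5 RPKM, which drops Cxcl12. No paired analysis was possible because each group is 1 pooled library, and for the same reason no library could be left out of a group. Leaving out the leading gene of each marker list was also chosen after seeing the data. Genes with few reads, such as Cxcl2 on day 3, are limited by depth.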
